A study of Rattus norvegicus with 20 samples.

Results

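A set of 9 genes that make, bind, clear and sense retinoic acid was followed through the embryonic rat testis. They were taken by symbol from the annotation of the array platform and are Cyp26b1, Aldh1a1, Aldh1a2, Dhrs3, Rbp4, Crabp1, Crabp2, Rara and Rarb. These 9 genes were read by 10 probe sets, of 14217 genes with a probe set of their own and 31042 probe sets in all. Cyp26b1 had 2 probe sets, a brighter (1384392_at) and a dimmer one (1376667_at), and each of the other genes had 1. All 10 passed the filter on low signal.

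Sprague-Dawley testes were measured on 20 arrays, 2 for each of 10 groups. For 6 groups, dams were injected daily from E8 (embryonic day 8) to E14 with the vehicle DMSO or with 100 mg/kg of vinclozolin, a fungicide whose metabolites block the androgen receptor. Their embryos were taken at E13, E14 or E16, so those taken at E13 came before the last injection day. For the other 4 groups, gonads of E13 embryos were cultured with the mesonephros attached for 3 days, then separated from it. They received 50 µM vinclozolin or its solvent DMSO, or 0.5 µM of the antiandrogen drug flutamide or its solvent ethanol, with 1 gonad of each pair given the solvent alone. No genotype beyond the strain is given, and sex was read by PCR for Sry. Whether the in utero testes were parted from the mesonephros is not stated. Arrays of a group are labelled biological replicates without naming animals or pools, so p-values here measure only the spread between arrays, which may be technical.

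Retinoic acid is a hormone-like derivative of vitamin A. Retinol reaches cells bound to Rbp4, is oxidised to retinal, and is then turned into retinoic acid by the aldehyde dehydrogenases of the Aldh1a family, while Dhrs3 returns retinal to retinol. Crabp1 and Crabp2 carry retinoic acid inside the cell, the nuclear receptors Rara and Rarb respond to it, and Cyp26 enzymes oxidise it for removal. In the embryonic gonad of rodents, retinoic acid is known as a signal for germ cells to enter meiosis, and Cyp26b1 of the fetal testis is known for breaking it down.

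Rarb is itself a textbook target of retinoic acid, through a response element of direct repeats spaced by 5 bases (DR5) near a start site. The stretch is shown because, among the 9 members, only the window of Rarb held such an element. It is taken from the RefSeq promoter table (GRCr8, the plus strand, on which the gene lies), and the capitals mark the element.

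Rarb chr15:11336410-11336439: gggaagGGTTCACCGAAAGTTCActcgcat

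All 9 genes had a window in that table, from 250 bases before to 50 after the start site. The Rarb element, at chr15:11336416-11336432, lies 24 to 40 bases after that start. A DR5 element on either strand occurred in 0.382% of the 33469 windows of 300 bases in the table. The related DR1 and DR2 elements, in 0.233% and 0.17% of all windows, were in no member's window. A match describes these letters and is not evidence of binding.

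Signals are those of the MAS5 algorithm on a linear scale, and levels of different probe sets are not compared. The trimmed mean signal was 210.1 on every in utero array, 218.1 on the vinclozolin culture arrays and 107 on those of the flutamide culture. Across probe sets, log2 values of the 2 arrays in a group correlated at 0.969 to 0.982. Beta-actin signal at the 3' end over that at the 5' end, which climbs as RNA degrades, was 9.08 to 11.1 on the flutamide culture arrays, 2.67 to 3.9 on the vinclozolin culture arrays and 1.73 to 3.47 on the in utero arrays. Differences are on the scale of log2(signal + 16), which understates changes of low genes, and a change was called at an adjusted p under 0.05 (limma, Benjamini-Hochberg over 22526 probe sets). The number of arrays limits the precision, with a median standard error of 0.173 for a difference between days and 0.244 for one between groups of 2.

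By Amh, 3 arrays stood apart from their partners, and many results for the members are given with and without them. Changes of the gene lists are given only with them. On the E13 arrays numbered 1, Amh, the Sertoli cell hormone that marks the testis, read 106 with vehicle and 372.4 with vinclozolin, against 1484.7 and 1102.2 on the arrays numbered 2. Xist, normally high only in female cells, read 758.6 and 896 on the E13 arrays numbered 1 against 20.4 and 17.9. The Y-linked Eif2s3y read 2363.1 on the first of them, near the 2594.5 of its partner. The E14 arrays also differed from the other days by these genes. At E14 Xist read 174.9 and 184.4 on vehicle arrays and 32 and 489.9 on vinclozolin arrays, against 2.4 to 16.6 at E16, and Eif2s3y read 902.6 to 1248.9 on all 4 E14 arrays, against at least 2363.1 on every other in utero array. Their part in the differences between E14 and the other days was not tested. Because all 4 E14 arrays share the low Eif2s3y, fits that leave out 1 of them cannot remove this difference between E14 and the other days. On E14 vehicle array 1, Amh read 1553.9 against 4892.5 to 5795.5 on the other 3 arrays of that day. Gata4 and Wt1, defining genes of the somatic gonad, read at least 897.5 and 1783.9 on every in utero array.

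Cyp26b1, the clearing enzyme, was highest at E14. The brighter probe set read 687.4 and 1852.9 with vehicle, against 917.7 and 1576.0 with vinclozolin at E13. At E14 it read 1030.0 and 2877.4 with vehicle, against 3542.4 and 2914.6 with vinclozolin. At E16 it read 556.5 and 718.4 with vehicle, against 693.5 and 814.5 with vinclozolin. The day means were 1258.5 ± 546.6, 2591.1 ± 1085 and 695.7 ± 106.5 (SD, n = 4 arrays). The low arrays at E13 and E14 are the 3 that stood apart, and E14 vehicle array 1 lay within the range of E13.

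By this probe set, Cyp26b1 rose by 1.00 ± 0.28 (log2 difference ± SE) from E13 to E14, a 2.005-fold change, and passed the test with an adjusted p of 0.0168. Without both E13 arrays numbered 1 the difference was 0.46 with an adjusted p of 0.219, and without E14 vehicle array 1 it was 1.37 with an adjusted p of 0.00193. Without all 3 of these arrays it was 0.83 and passed (adjusted p 0.00201). It then fell by 1.75 ± 0.28 from E14 to E16 (adjusted p 0.000163), with no overlap between the arrays. From E13 to E16 the difference of -0.74 did not pass (adjusted p 0.0779), and it did without both E13 arrays numbered 1 (-1.29, adjusted p 0.00411).

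The dimmer probe set followed the same course at lower signal. Its signals were 84.0 and 134.3 with vehicle, against 64.5 and 122.6 with vinclozolin at E13. At E14 they were 139.6 and 292.2 with vehicle, against 504.5 and 427.9 with vinclozolin, and at E16 38.9 and 69.3 with vehicle, against 95.9 and 84.3 with vinclozolin. The E14 arrays all lay above those of E13, although E14 vehicle array 1 did so by little, and above those of E16. It rose by 1.51 ± 0.23 from E13 to E14 (adjusted p 0.000373) and fell by 1.93 ± 0.23 from E14 to E16 (adjusted p 1.19e-05). Without the 3 arrays that stood apart, these differences were 1.415 and -2.176. From E13 to E16 the difference was -0.42 (adjusted p 0.228), and -0.76 without the 3 arrays that stood apart (adjusted p 0.0227).

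**Figure D1:**
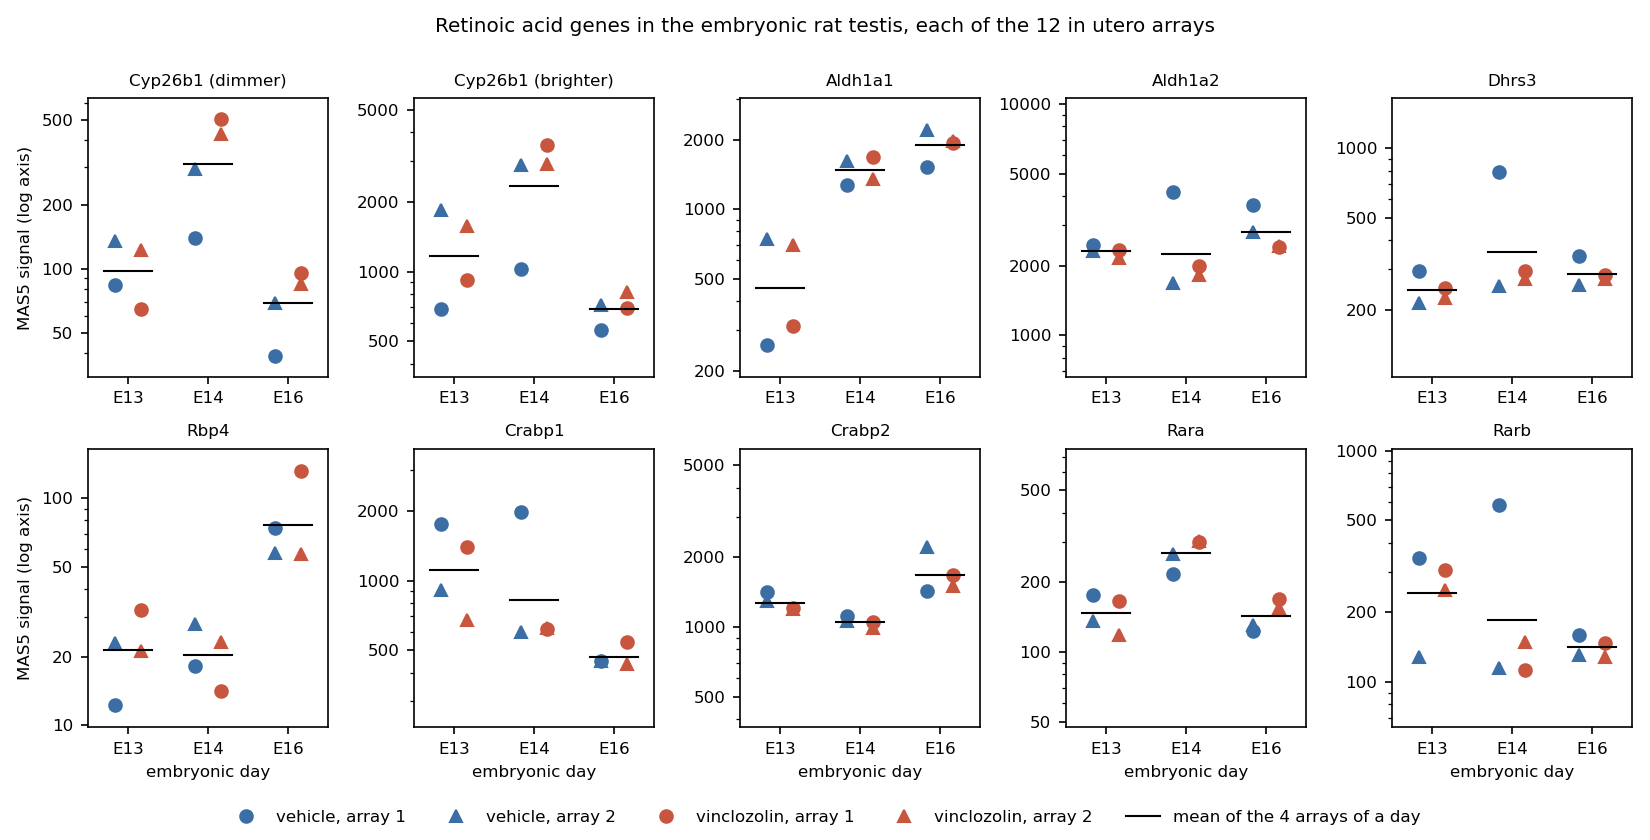
MAS5 signal (log axis) of the 10 probe sets on each of the 12 in utero arrays, by embryonic day; blue is vehicle, red is vinclozolin, circles are arrays numbered 1, triangles arrays numbered 2, and black lines the mean of 4 arrays taken on the log2 scale. Cyp26b1 and Rara peak at E14, Aldh1a1 is lowest at E13, and Rbp4 is highest at E16, while 1 vehicle array at E14 lies high for Dhrs3, Crabp1 and Rarb.

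The plot of signals by day shows that the E14 peak of Cyp26b1 was higher on the vinclozolin arrays. Without E14 vehicle array 1 this gap was 0.64 for the dimmer probe set and 0.16 for the brighter, on the log2 scale. Taken over vehicle arrays alone, the E14 minus E13 difference was 0.84 for the dimmer probe set (adjusted p 0.156) and 0.60 for the brighter (adjusted p 0.413), so neither passed. Over vinclozolin arrays alone it was 2.19 and 1.41, with adjusted p-values of 0.00115 and 0.0257. A test of whether the vinclozolin effect differed between the days passed for neither probe set (limma, adjusted p 0.983 for both). The fall from E14 to E16 passed for both probe sets in either treatment. In bulk tissue, fewer cells of a type and less RNA per cell cannot be told apart.

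Markers of Sertoli cells, among other cell types, moved with Cyp26b1. Of 8 measured genes of that list, 3 rose from E13 to E14 (Amh by 2.91, Dhh by 1.93 and Cldn11 by 0.63) and none fell, where 13.1% of all tested probe sets rose. The rise of Amh includes the E13 arrays numbered 1, which were set apart by their low Amh. From E14 to E16, 6 of 8 fell and Cldn11 alone rose, where 23.2% of all fell. Summed signal of the list ran from 5681.7 to 7531.6 at E13, from 6395.2 to 14332 at E14 and from 6327.1 to 7318.8 at E16, and its lowest E14 value was on vehicle array 1. The course was not that of the Sertoli list alone. Of 7 endothelial genes, 5 rose from E13 to E14 and 5 fell from E14 to E16, and the summed signal was 2875.1 to 3503.5 at E14 against 1899.6 to 2424 at E13 and 2009 to 2474.1 at E16. Of 9 genes for mesonephros and tubule epithelium, 4 rose and 1 fell to E14 and 8 fell to E16, with sums of 3952.8 to 4449.6 at E14 against 3132.6 to 3822.5 and 2160.9 to 2573.9. Of 5 genes tested for ovary-type supporting cells, 1 rose and then 3 fell. No marker of these lists was at 0, and the part of the cell types in the Cyp26b1 course was not tested. Among known regulators of Cyp26b1, 0 of 4 measured passed from E13 to E14 (limma; 8521 probe sets had an unadjusted p under 0.05), and 3 fell from E14 to E16. These were Nr5a1, a steroidogenic factor, by 1.02 (adjusted p 0.00163), Fgf9, a growth factor of testis determination, by 0.65 (adjusted p 0.0158), and Foxl2, an ovarian factor whose signal was low throughout, by 1.17 (adjusted p 0.0342). Sox9 was not analysed here.

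Aldh1a1, one of the retinal dehydrogenases, rose early and stayed high. It read 258.8 and 740.6 with vehicle, against 312.6 and 700.7 with vinclozolin at E13, and the lower value of each pair was on the array numbered 1. At E14 it read 1266.3 and 1619.7 with vehicle, against 1679.7 and 1351.7 with vinclozolin. At E16 it read 1515.3 and 2195.3 with vehicle, against 1933.8 and 1976.2 with vinclozolin. Every later array lay above every E13 array. Aldh1a1 rose by 1.66 ± 0.25 from E13 to E14 (3.16-fold, adjusted p 0.000375) and by 2.02 ± 0.25 from E13 to E16 (4.05-fold, adjusted p 3.18e-05), and from E14 to E16 the difference of 0.36 did not pass (adjusted p 0.274). The rise from E13 was called in all 8 fits that left out 1 array of the days compared. Without the 3 arrays that stood apart it was smaller, at 1.10 to E14 and 1.37 to E16, and both still passed (adjusted p 0.000872 and 1.11e-05).

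Aldh1a2, the other retinal dehydrogenase, was bright at every day and had no called change. It read 2453.0 and 2320.8 with vehicle, against 2335.1 and 2165.2 with vinclozolin at E13, a narrow range. At E14 vehicle array 1 read 4159.1, and the other 3 arrays read 1685.8 with vehicle, against 2000.1 and 1823.9 with vinclozolin. At E16 it read 3676.3 and 2786.1 with vehicle, against 2407.5 and 2437.7 with vinclozolin. The E16 minus E14 difference was 0.31 ± 0.20 (adjusted p 0.243). Without E14 vehicle array 1 it was 0.63 and passed (adjusted p 0.00344), and without E14 vehicle array 2 it was -0.018.

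Dhrs3, the reductase that returns retinal to retinol, also turned on that array. It read 213.1 to 295.7 at E13 and 256.0 to 341.1 at E16. At E14 vehicle array 1 read 792.7, and the other 3 arrays 253.4, 293.7 and 271.0. The E14 minus E13 difference was 0.52 ± 0.24 and did not pass (adjusted p 0.124). It was 0.13 (adjusted p 0.631) without E14 vehicle array 1 and 0.92 (adjusted p 0.00194) without vehicle array 2.

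In utero, Rbp4, the retinol carrier, reached signal above the lower part of the arrays only at E16. At E13 it read 12.3 and 23.1 with vehicle, against 32.1 and 21.2 with vinclozolin, and at E14 18.2 and 27.9 with vehicle, against 14.2 and 23.2 with vinclozolin. All 8 values lay under the 40th percentile of their array, which serves here as the floor of the filter. At E16 it read 74.1 and 57.7 with vehicle, against 132.3 and 56.7 with vinclozolin, above every earlier array. Rbp4 rose by 1.33 ± 0.25 from E14 to E16 (adjusted p 0.000565) and by 1.29 ± 0.25 from E13 to E16 (adjusted p 0.00174). The size depends on the pseudocount, since the rise from E14 was 1.84 with a pseudocount of 1 and 0.74 with 64.

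The binding proteins of retinoic acid went different ways after E13. Crabp1 read 1757.6 and 910.6 with vehicle, against 1401.0 and 675.8 with vinclozolin at E13, with the higher value on the array numbered 1 in both groups. At E14 vehicle array 1 read 1980.7 and the other 3 arrays 601.1, 619.1 and 623.9, and the E16 arrays read 436.4 to 540.1. Crabp1 fell by 1.22 ± 0.33 from E13 to E16 (adjusted p 0.0163), with all E16 arrays below all E13 arrays. Without both E13 arrays numbered 1 the difference was -0.73 and did not pass (adjusted p 0.218). The call was also lost without E13 vehicle array 1 alone (-0.99, adjusted p 0.0713), without E13 vinclozolin array 1 alone (-0.96, adjusted p 0.089) and without E16 vinclozolin array 2 (-1.15, adjusted p 0.0586).

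Crabp2 was steady between arrays at E13 and E14. It read 1197.0 to 1413.3 at E13 and 985.4 to 1112.1 at E14, so the E14 arrays lay below those of E13, but the difference of -0.27 did not pass (adjusted p 0.0983). At E16 it read 1426.8 and 2209.6 with vehicle, against 1682.2 and 1497.3 with vinclozolin, above all earlier arrays. Crabp2 rose by 0.67 ± 0.12 from E14 to E16 (1.59-fold, adjusted p 0.000318), and this call held when any array was left out. The rise of 0.39 ± 0.12 from E13 to E16 (adjusted p 0.0262) kept its call in 3 of the 8 such fits. It was lost without E13 vehicle array 2, E13 vinclozolin array 1 or 2, E16 vehicle array 2 (0.24, adjusted p 0.131) or E16 vinclozolin array 1. The call was also lost without the 3 arrays that stood apart (0.43, adjusted p 0.0843) and without a variance trend in the fit (adjusted p 0.054).

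Of the receptors, Rara had a course like that of Cyp26b1. It read 177.3 and 136.1 with vehicle, against 166.5 and 118.3 with vinclozolin at E13. At E14 it read 217.9 and 264.9 with vehicle, against 300 and 303.1 with vinclozolin, and at E16 123.2 and 130.6 with vehicle, against 170.2 and 154.6 with vinclozolin. The E14 arrays lay above all others. Rara rose by 0.80 ± 0.14 from E13 to E14 (1.74-fold, adjusted p 0.000991) and fell by 0.84 ± 0.14 from E14 to E16 (adjusted p 0.00023). Over vehicle arrays alone the rise of 0.58 did not pass (adjusted p 0.116).

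Rarb, the receptor with the DR5 element shown above, varied more between the vehicle arrays of E13 and of E14 than between the days. It read 345.1 and 128.3 with vehicle, against 304.1 and 249.3 with vinclozolin at E13. At E14 vehicle array 1 read 581.2, and the other 3 arrays 114.9, 112.2 and 148.5, and at E16 the arrays read 128.3 to 159.8. No difference between days passed (adjusted p 0.476, 0.425 and 0.16). Without E14 vehicle array 1 the E14 minus E13 difference was -0.90 and passed (adjusted p 0.0157), and without E14 vehicle array 2 it was 0.19.

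**Figure D2:**
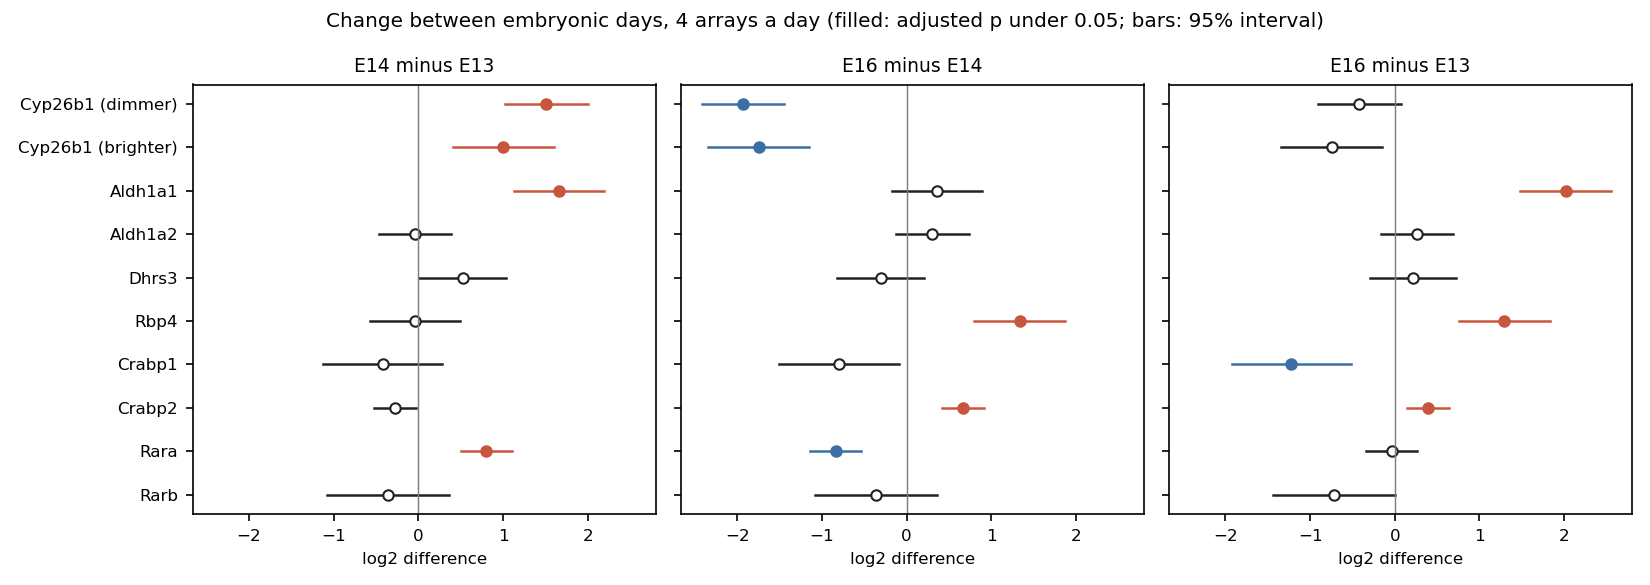
Log2 difference between embryonic days for the 10 probe sets, mean of 4 arrays against mean of 4; bars are 95% intervals, filled points passed the threshold (red rose, blue fell) and open points did not. Cyp26b1 rises to E14 and falls to E16, Aldh1a1 rises from E13, and Rbp4 and Crabp2 rise to E16.

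Set against the background, the plot of differences between days holds 4 of 10 member probe sets called from E13 to E14, all of which rose, where 25.1% of tested probe sets were called (13.1% rose and 12% fell). From E14 to E16, 5 of 10 were called, 2 that rose and 3 that fell, against 41.5% (18.3% rose and 23.2% fell). From E13 to E16, 4 of 10 were called, 3 that rose and 1 that fell, against 18.7% (9.45% rose and 9.3% fell). The median difference of the 10 probe sets was 0.24 from E13 to E14, -0.33 from E14 to E16 and 0.09 from E13 to E16, against 0.07, -0.06 and -0.02 over all tested probe sets. Arrays of the days did not overlap for 4, 6 and 4 member probe sets, against 23.4%, 34.5% and 23.4% of all. From E14 to E16 the share of members called was near that of the arrays as a whole. Cyp26b1 is counted by both of its probe sets among the calls from E13 to E14, with Aldh1a1 and Rara, and among those from E14 to E16. The members were chosen with earlier results of these data known, so no share is read as a result about the set. Over vehicle arrays alone, 1, 5 and 2 members were called in the same 3 comparisons, against 2.93%, 22% and 8.55% of tested probe sets. Over vinclozolin arrays alone, 4, 5 and 2 were called, against 16.2%, 26.8% and 6.26%.

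Other genes of the pathway gave a mixed picture. Of a list of 29, 25 had a probe set and 15 passed the filter. From E13 to E14, 2 rose, the retinoid X receptors Rxra by 0.85 (adjusted p 0.032) and Rxrb by 0.49 (adjusted p 0.033), which pair with Rara and Rarb on DNA. Rxra was low, at 9.5 to 65.2 in utero. Another 2 fell, the retinal reductase Rdh14 by 0.55 (adjusted p 0.00841) and the fatty acid and retinoic acid carrier Fabp5 by 0.47 (adjusted p 0.0238). Over all tested probe sets, 13.1% rose and 12% fell.

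From E14 to E16, 3 of the 15 rose and 2 fell, where 18.3% of all tested probe sets rose and 23.2% fell. Stra6, the membrane receptor that takes retinol from Rbp4, fell by 1.51 (adjusted p 5.35e-05), from 364.8 to 462.7 on 3 E14 arrays and 972.6 on vehicle array 1 to 149.5 to 181 at E16. Rxrb fell by 0.56 (adjusted p 0.0102), while Fabp5 rose by 0.85 (adjusted p 0.000204) and Rdh14 by 0.69 (adjusted p 0.000813). From E13 to E16, Stra6 fell by 1.23 (adjusted p 0.000708), the corepressor Nrip1 fell by 0.43 (adjusted p 0.0204), and Ttr, the plasma partner of Rbp4, rose by 0.93 (adjusted p 0.0329). Over all tested probe sets, 9.45% rose and 9.3% fell from E13 to E16. The median of the 15 was -0.07 from E13 to E14, -0.05 from E14 to E16 and 0.0037 from E13 to E16. Cyp26a1, another clearing enzyme of this family, read at most 22.5 on any in utero array and was not tested.

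Of 16 genes known to respond to retinoic acid, 8 had a probe set and all 8 were tested. From E13 to E14 only Tgm2, a transglutaminase, passed, and it rose by 0.85 (adjusted p 0.0118), where 13.1% of all tested probe sets rose. From E14 to E16, 4 fell and 1 rose, with a median of -0.39, where 23.2% of all tested probe sets fell and 18.3% rose. The homeobox genes Hoxb2, Hoxb4 and Cdx1 fell by 1.13, 1.36 and 0.98 (adjusted p 0.00103, 0.00357 and 0.00329), and Rarres2, the secreted protein chemerin, rose by 1.05 (adjusted p 4.51e-05). From E13 to E16, 3 fell and 1 rose, the same 4 genes, with a median of -0.34. Of all tested probe sets, 9.3% fell and 9.45% rose. Hoxb4 read 4.9 to 17.5 at E16, under the floor of the filter, so its size is uncertain.

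Meiosis genes, which retinoic acid is known to induce in germ cells, were few on these arrays, with 5 of 10 listed genes measured and 3 tested. Sycp3, a protein of the synaptonemal complex, read 57.5 to 167.4 at E13, 52.5 to 84.1 at E14, and 540.2 and 1065.2 with vehicle, against 713.8 and 617.3 with vinclozolin at E16. Sycp3 rose by 3.07 ± 0.32 from E14 to E16 (adjusted p 4.12e-06), and its partner Sycp2, low at earlier days, rose by 1.499 (adjusted p 0.000192). From E13 to E16 they rose by 2.61 and 1.34 (adjusted p 2.74e-05 and 0.00112). Stra8 and Rec8 were not analysed here, nor were the germ cell markers Ddx4 and Dazl. The 3 germ cell markers measured summed to 140.9 to 210.2 at E13, 169.1 to 278.8 at E14 and 156.5 to 349.9 at E16. Of these, 1 fell from E14 to E16, where 23.2% of all tested probe sets fell.

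In some groups the 2 arrays differed by more than the days did. For E14 vehicle, array 1 minus array 2 was 2.19 for Rarb (4.56-fold), 1.69 for Crabp1 (3.24-fold), 1.59 for Dhrs3 (3.00-fold) and 1.29 for Aldh1a2 (2.45-fold), but -1.47 for the brighter probe set of Cyp26b1 (2.77-fold lower). Gaps larger than these between the same 2 arrays occurred in 0.151%, 0.737%, 1.02%, 2.28% and 1.38% of tested probe sets. Crabp2, by contrast, differed by 0.069. At E13, array 1 minus array 2 was -1.46 with vehicle and -1.13 with vinclozolin for Aldh1a1, and 0.94 and 1.03 for Crabp1.

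**Figure D3:**
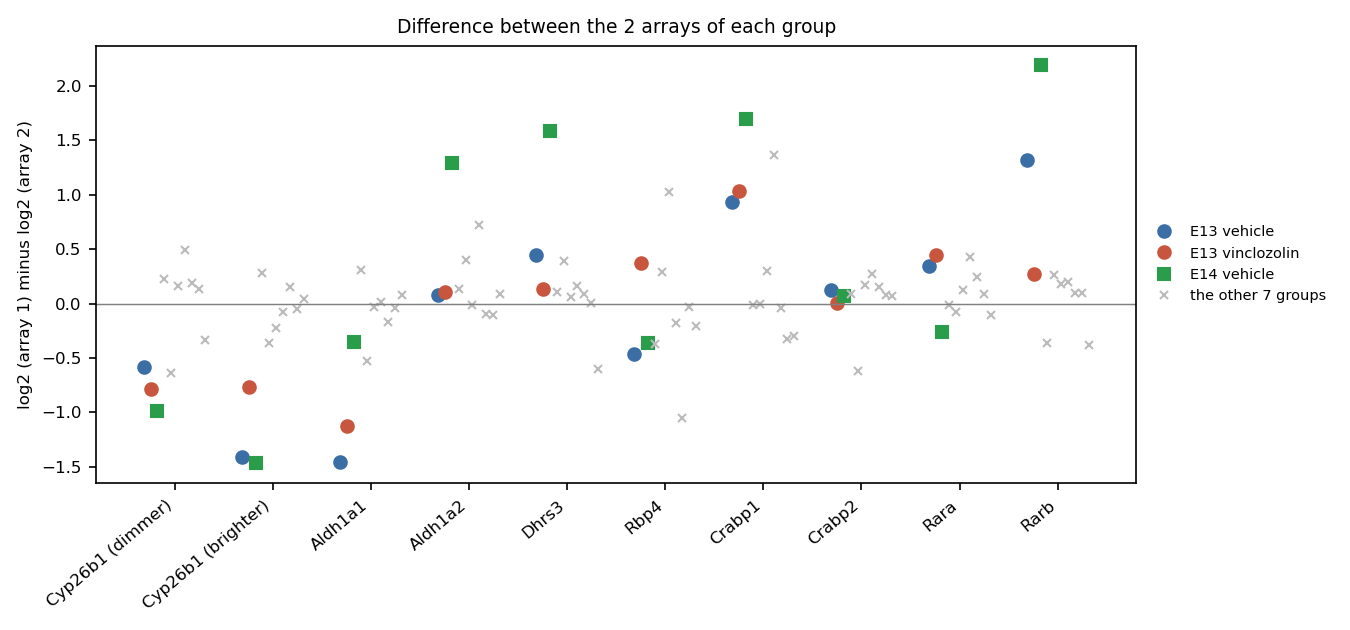
Log2(signal + 16) of array 1 minus that of array 2 of each group, for the 10 probe sets; coloured points are the E13 vehicle, E13 vinclozolin and E14 vehicle groups and grey crosses the other 7 groups. For E14 vehicle, Rarb, Crabp1, Dhrs3 and Aldh1a2 are higher and Cyp26b1 is lower on array 1.

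The plot of gaps between arrays of a group can be set beside other genes of the pathway on E14 vehicle array 1, named here after their values were seen. The retinal dehydrogenase Aldh1a3 read 481.7 there against 89.8 to 133.4 on the other 3 arrays of that day, and the retinol dehydrogenase Rdh10 357.0 against 105.2 to 137.4. Of the target genes, Hoxb2 read 407.2 against 143.7 to 188.0, and Meis1, a homeobox gene, 3480.6 against 1647.2 to 1739.0. Each of these was highest on the array on which Aldh1a2, Crabp1, Dhrs3 and Rarb were highest. Over the whole lists, 18 of 25 other pathway genes and 6 of 8 target genes were higher on E14 vehicle array 1 than on array 2. The other 7 and 2 were not. Such counts were not particular to these arrays, since in the other groups they ran from 8 to 19 of 25 and from 1 to 6 of 8. The share over all probe sets was not counted.

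Markers of neighbouring tissue were also high on that array. Of 9 measured genes of the list for mesonephros and tubule epithelium, 7 read higher on E14 vehicle array 1 than on array 2, among them the transcription factors Pax8 (238.2 against 70.4 to 115.1 on the other 3 arrays) and Lhx1 (94.7 against 30.9 to 38.0) and the cadherin Cdh16 (242.8 against 41.8 to 58.5). The exceptions were the keratins Krt8 and Krt18, and the summed signal of the list, 3952.8, was below the 4113.5 to 4449.6 of the other arrays. All 4 genes for coelomic epithelium, all 5 for erythroid cells and all 8 for macrophages were higher on array 1 than on array 2, and 1 of 8 for Sertoli cells was. Counts this high occurred in other groups too, with 5 of 5 erythroid genes in E16 vehicle and 4 of 4 coelomic genes in culture with DMSO. For the mesonephros list it was 8 of 9 in culture with DMSO and with ethanol. For macrophages no other group had more than 6 of 8. The share over all probe sets was not counted. The early response gene Fos read 1534.6 against 18.3 to 289.2. On the E13 arrays numbered 1, Pax2 read 60.8 and 68.4 against 24.4 and 30.3, and Pax8 150.3 and 119.5 against 68.5 and 73.3, while 5 and 6 of the 9 genes of the list were higher than on the arrays numbered 2. No marker of these lists was at 0 on both arrays of a pair, and the part of such tissue in the members' values was not tested.

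Exposure to vinclozolin in utero changed no member past the threshold. At E14, 0 of 10 member probe sets were called, against 0.00444% of all tested probe sets (1 of 22526; limma, with 1239 at an unadjusted p under 0.05). The largest difference was in Cyp26b1. Its E14 signals given above did not overlap, with both vinclozolin arrays higher for either probe set, and the difference was 1.13 ± 0.33 for the dimmer probe set (95% interval 0.45 to 1.82, unadjusted p 0.00288, adjusted p 0.888) and 0.89 ± 0.40 for the brighter (interval 0.05 to 1.74, adjusted p 0.888).

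These E14 values turn on the vehicle arrays. Without vehicle array 1, the differences were 0.64 for the dimmer probe set and 0.16 for the brighter (adjusted p 1 for both). Without vehicle array 2 they were 1.63 and 1.63 (adjusted p 0.0341 and 0.0547). In that last fit Aldh1a2 (-1.12), Dhrs3 (-1.44) and Rarb (-2.04) were also called, and 272 probe sets in all. The Sertoli list had a median difference of 0.52 at E14 with 0 of 8 genes called, and the regulators of Cyp26b1 a median of 0.62 with 0 of 4 called. Foxl2 was at 0.92, Nr5a1 at 0.79, Dmrt1 at 0.45 and Fgf9 at 0.38. The list does not part activators from repressors, so its median has no single reading for Cyp26b1.

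Of the other members at E14, Rarb differed by -0.95, Crabp1 by -0.80, Dhrs3 by -0.65 and Aldh1a2 by -0.47, each with vehicle array 1 above and vehicle array 2 near or among the vinclozolin arrays, and none passed (adjusted p 0.888 to 0.893). Rara was higher by 0.31 on both vinclozolin arrays (interval -0.11 to 0.73). Aldh1a1 differed by 0.07 (interval -0.68 to 0.83) and Crabp2 by -0.09 (interval -0.44 to 0.26). Arrays did not overlap for 4 of 10 member probe sets, against 27.1% of all.

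At E13 and E16 no member was called either, and no probe set of the array was (0%; limma, with 402 and 1506 at an unadjusted p under 0.05). At E13 the differences lay between -0.37 (Crabp1) and 0.35 (Rarb). At E16 Cyp26b1 by its dimmer probe set was higher by 0.63 (interval -0.06 to 1.32, adjusted p 0.767) and Rara by 0.32 (interval -0.10 to 0.74), and Aldh1a2 was lower (-0.40, interval -1.01 to 0.21). The arrays of the groups did not overlap for these 3, nor for Crabp2 at E13 (-0.17), against 39.2% of probe sets at E16 and 24.4% at E13. An interval that holds 0 does not show that the groups were alike.

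Averaged over the days, vinclozolin minus vehicle was 0.52 ± 0.19 for the dimmer probe set of Cyp26b1 (interval 0.12 to 0.91, unadjusted p 0.0138, adjusted p 0.998) and 0.41 ± 0.23 for the brighter (adjusted p 0.998). No member and no probe set passed (0%; 923 had an unadjusted p under 0.05), and arrays of the treatments overlapped for every member (they did not for 0.0311% of all). Aldh1a2 was at -0.32 ± 0.17 and Crabp1 at -0.36 ± 0.27. A test of whether the effect differed between the days gave an adjusted p of 0.983 for the dimmer probe set of Cyp26b1, the member with the smallest p, and called no probe set (0%; 1004 at an unadjusted p under 0.05).

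In culture the members were all present, but the 3 sets of arrays were scaled apart, so their levels are set side by side with no test, by rank within each array. The brighter probe set of Cyp26b1 ranked at percentiles 97.6 to 98.5 in the culture with vinclozolin, at 97.8 to 98 in the one with flutamide, against 90.0 to 97.1 at E13 and 87.7 to 92.1 at E16. Its other probe set ranked at 68.1 to 74.9 and at 58.8 to 65.4, against 49.0 to 64.7 at E13. Aldh1a1 ranked at percentiles 99.1 to 99.2 and 98.4 to 98.7, against 75.0 to 90.6 at E13 and 95.9 to 97.5 at E16. By the brighter probe set of Cyp26b1, both enzymes thus ranked above their E13 and E16 arrays in either culture. At E14 that probe set ranked at 94.3 to 99.0, a range that holds its ranks in both cultures. Aldh1a1 ranked at 95.7 to 96.9 at E14, below both cultures. The E13 testis was the starting tissue, and the 3 days of culture end at the age of the E16 testis.

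Crabp1, Dhrs3 and Rarb ranked lower in culture than at E13. Crabp1 ranked at percentiles 59.6 to 78.5 in the culture with vinclozolin, at 76.8 to 87.8 in the one with flutamide, against 89.8 to 97.1 at E13. Dhrs3 ranked at percentiles 54.3 to 62.5 and 59.2 to 70.5, against 72.5 to 77.6 at E13, and Rarb at 56.7 to 61.5 and 49.9 to 58.7, against 64 to 80.2. Aldh1a2 ranked at 93.7 to 96.8 in the vinclozolin culture, below its 97.7 to 98.2 at E13, and at 98 to 98.3 in the flutamide culture. Rara, at 60.3 to 69.1 in culture, and Crabp2, at 96.2 to 97.2, overlapped their in utero ranges. Rbp4 stayed low in the vinclozolin culture, with signals of 12.9 to 44.0, and had signals of 37.7 to 45.8 in the flutamide culture. It ranked at 18.5 to 41.77 in the vinclozolin culture and at 45.35 to 51.22 in the flutamide culture. The flutamide culture ranks lay above those at E13 (21.33 to 36.58) and E14 (24.28 to 34.72), and overlapped those at E16 (47.19 to 62.6).

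**Figure D4:**
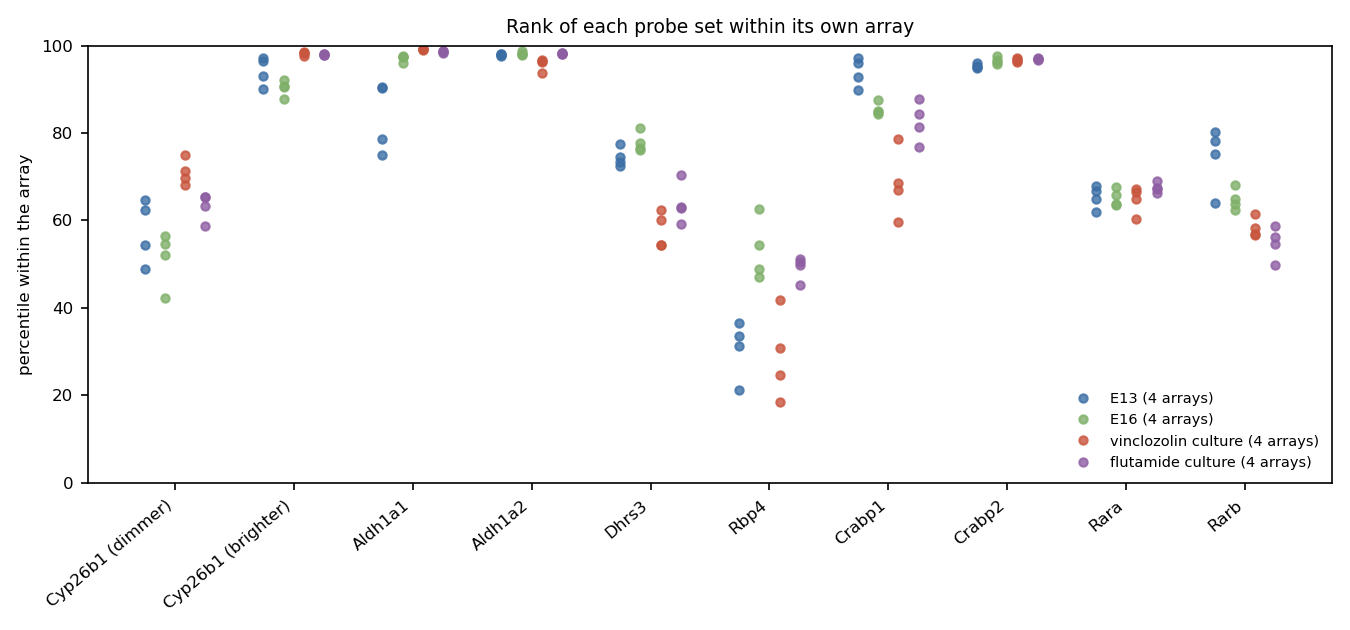
Percentile of each of the 10 probe sets within its own array, for the 4 E13 arrays, the 4 E16 arrays and the 4 arrays of each culture experiment, vehicle and treated together. Aldh1a1 and the brighter probe set of Cyp26b1 rank higher in both cultures than at E13 or E16, and Dhrs3 and Crabp1 mostly rank lower than at E13. The E14 arrays are not plotted.

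The plot of ranks carries a limit of its own, since the actin ratio was higher in the flutamide culture than elsewhere. That culture also had Fos at 973.9 to 1289.4. On the flutamide culture arrays Xist read 168.2 to 211.9 and Eif2s3y 668.3 to 764.8, on their own scale. In the other culture, vinclozolin array 2 read 112.8 for Xist, against 5.1 to 5.4 on its other arrays. Amh read 1902.3 there, against 2550 to 3972.4. The part of RNA quality, of the scale or of these markers in the ranks was not tested. Summed signal of the Sertoli list was 9608 to 12764 with vinclozolin or DMSO and 4220.8 to 4729.2 with flutamide or ethanol, each on its own scale.

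Neither antiandrogen changed a member past the threshold in culture, and no probe set passed in either experiment (0%; limma, with 610 for vinclozolin and 494 for flutamide at an unadjusted p under 0.05). The doses, 50 µM of vinclozolin and 0.5 µM of flutamide, and the solvents differ, so the compounds' values are given side by side.

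Cyp26b1 by its brighter probe set read 2686.4 and 2831.2 with DMSO and 2515.7 and 2260.0 with vinclozolin, a difference of -0.21 (interval -1.06 to 0.64). It read 1046.4 and 1083.7 with ethanol and 1021.4 and 989.4 with flutamide, a difference of -0.08 (interval -0.93 to 0.77). Both treated groups lay below their vehicle without overlap. The second probe set differed by -0.09 and -0.07, with overlap.

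Aldh1a1 read 4361.0 and 4331.2 with DMSO, 3850.8 and 4327.1 with vinclozolin, 1413.0 and 1451.6 with ethanol and 1266.6 and 1197.4 with flutamide. It was lower in both experiments, by -0.09 and -0.22 on the log2 scale, and neither interval excluded 0. Dhrs3 read 132.1 and 116.7 with DMSO and 88.1 and 82.1 with vinclozolin (-0.47, interval -1.20 to 0.25), but 74.1 and 73.7 with ethanol and 65.6 and 108.2 with flutamide (0.16). Crabp1 read 145.8 and 187.5 with ethanol and 220.4 and 275.4 with flutamide (0.53, interval -0.46 to 1.53), and 319.2 and 114.4 with DMSO and 172.2 and 177.6 with vinclozolin (-0.13). The DMSO arrays differed from each other by more than the flutamide difference of Crabp1.

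The remaining members in culture differed by between -0.23 (Rarb) and 0.21 (Aldh1a2) for vinclozolin and between -0.16 (Crabp2) and 0.10 (Rara) for flutamide. Arrays did not overlap for 4 of 10 member probe sets with vinclozolin, against 28.8% of all, and for 5 of 10 with flutamide, against 38.1%. The lists of other pathway genes, target genes, meiosis genes and regulators had 0 genes called in every antiandrogen comparison. For the brighter probe set of Cyp26b1, vinclozolin minus vehicle was -0.21 in culture and 0.89 at E14, and the difference of these effects did not pass (-1.10 ± 0.57, adjusted p 1).

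**Figure D5:**
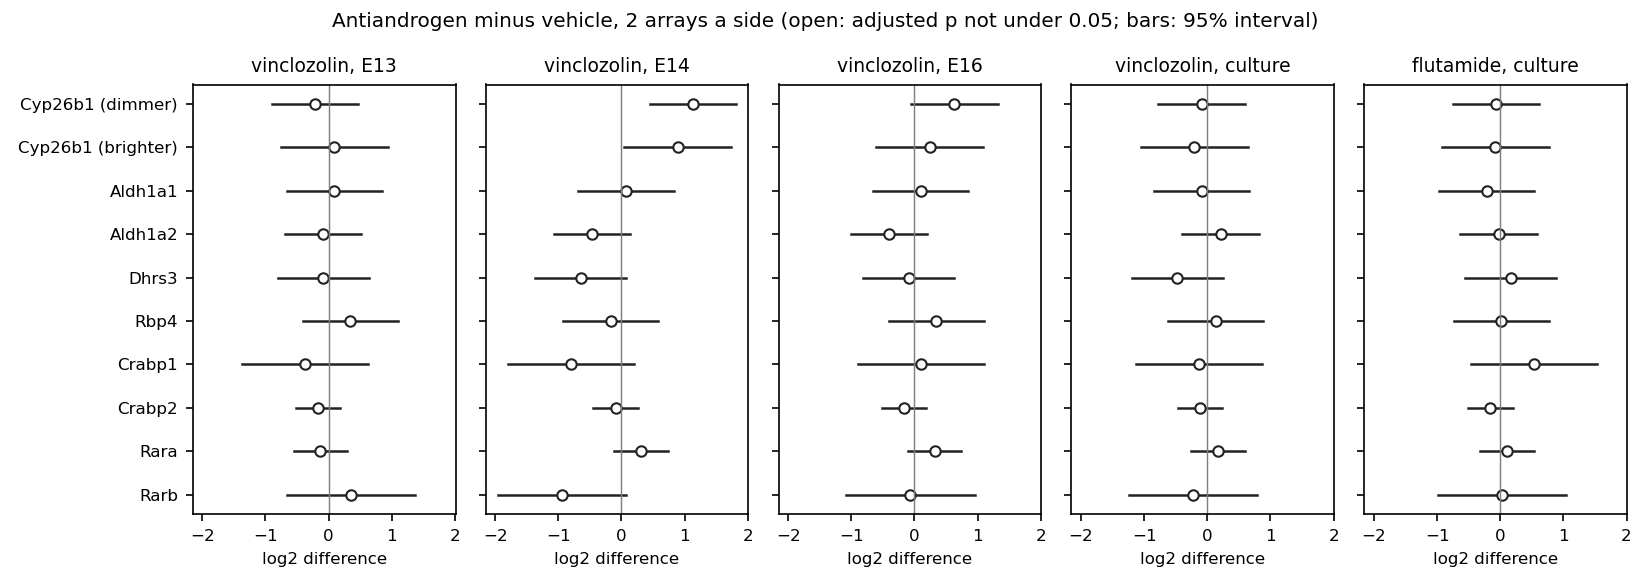
Log2 difference of antiandrogen minus vehicle for the 10 probe sets, 2 arrays against 2, for vinclozolin at E13, E14, E16 and in culture and for flutamide in culture; bars are 95% intervals and open points did not pass the threshold. All points are open, and the largest differences are those of Cyp26b1 (higher) and Rarb (lower) at E14.

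The plot of antiandrogen differences shows intervals of more than 1 on the log2 scale for most members, Crabp2 and Rara having the narrowest. Genes most like each member over the 12 in utero arrays were taken by Pearson correlation as a description, with days, treatments and the 3 arrays that stood apart all shared. Cyp26b1 (brighter probe set) was most like Krt8, a keratin (r = 0.983), C8h15orf39 (0.972) and Ptprv (0.968). Aldh1a1 was most like Ltbp4 (0.982), Lrrc17 (0.978) and Rab20 (0.972), and Rara most like Itgb5 (0.973), Dll4 (0.972) and Tcf7l1 (0.963). Crabp2 was most like Exosc1 (0.968), Prdx3 (0.957) and Pfdn1 (0.952). These 4 members had nearest genes with r above 0.96.

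The best values of the other 5 members were lower, at 0.954 or less. Crabp1 was most like Bcl11a (r = 0.954), Hoxb6 (0.95) and Epb41l3 (0.943), Rarb most like Rprm (0.949), Gabrp (0.932) and Foxp1 (0.931), and Aldh1a2 most like Cd83 (0.939), Sbspon (0.921) and Fuom (0.913). Dhrs3 was most like Nfatc4 (0.926), Ntn1 (0.922) and Spint1 (0.921), and Rbp4 most like Ndp (0.948), Serpind1 (0.923) and Gng11 (0.923). Between members, the 2 probe sets of Cyp26b1 correlated at 0.935, and the dimmer one correlated with Rara at 0.856 and with Crabp2 at -0.688. The brighter one correlated with Rara at 0.694 and with Crabp2 at -0.739. Other pairs were as strong, with Crabp1 at 0.852 with Rarb and at -0.741 with Aldh1a1.

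The genes lie apart in the genome. In the GRCr8 assembly, Aldh1a1 spans chr1:227426939-227579497, Rbp4 chr1:245306349-245313551 and Crabp2 chr2:175714862-175719208. Cyp26b1 spans chr4:118599356-118616176, Dhrs3 chr5:162031853-162065655 and Rara chr10:84379780-84424371. Crabp1 and Aldh1a2 share a chromosome, at chr8:64047431-64055469 and chr8:80758641-80837891, and Rarb spans chr15:10837252-11482037. Where the probes of each probe set lie within these genes was not analysed here.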

How the data were processed

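RNA of 20 rat testis samples was hybridised to Affymetrix arrays. The authors deposited linear signal intensity from MAS5 and, for culture, GCOS, per the submitters' processing notes, in versions not given in the sources used here. Within a set, the arrays shared 1 mean after trimming 2% at each end, and no further normalization was applied. Of 31099 probe sets, 57 controls were removed, and 22526 that reached the 40th percentile of their array on at least 2 arrays were tested. Values were taken to log2 after adding 16. All 20 arrays entered 1 limma fit (3.58.1, R 4.3.3) with 1 mean per group, and a variance trend. P-values are two-sided with Benjamini-Hochberg adjustment, and intervals are at 95%. Comparisons between days pool vehicle and vinclozolin arrays. The fit was tested on simulated data. For E14 minus E13 it called 74 of 100 probe sets changed 2-fold and 99 of 100 changed 4-fold among 22526. For vinclozolin at E14 it called 41 and 93. The simulated noise was independent, with no deviation shared across an array, and few probe sets were changed. In the data 5643 were called from E13 to E14, so these rates need not hold for the real arrays. The members and the gene lists were chosen with earlier results of these data known. Named by rule were all members, up to 4 genes per list and comparison of smallest p, and the 3 genes most like each member. A gene of a list was read by its probe set of highest mean. Symbols came from the platform annotation and locations from RefSeq.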

Additional observations from a re-analysis of the deposited data

How the results depend on the processing

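Quantile normalization, pseudocounts of 1 and 64, other filters and array sets, the replicate number as a block, no variance trend, arrays left out, and 1 treatment alone were tried. Besides fits that left out 1 array, 913 values kept their direction and side of the threshold, 35 turned their sign, 7 passed anew and 15 no longer passed, and in fits without 1 array these counts were 477, 59, 12 and 12. Every value that turned its sign was short of the threshold before. Leaving out the 3 arrays together was added after the data were seen, and the cause of the changes below was not tested.

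Whether the replicate numbers pair the arrays is not stated. Deviations of same-numbered arrays correlated at 0.602 at E13, -0.05 at E14 and -0.11 at E16. They correlated at 0.115 in the vinclozolin culture and at -0.000125 in the flutamide culture. With so few arrays in a group, such correlations cannot decide whether arrays are paired. In culture the gonads of a pair were split between solvent and treatment, but the main fit took no account of pairs. With the replicate block, 3 probe sets were called for vinclozolin at E14 and 1 at E16. Under it Aldh1a1 (0.36) and Crabp1 (-0.80) from E14 to E16 and the brighter probe set of Cyp26b1 (-0.74) from E13 to E16 passed (adjusted p 0.0298, 0.0142 and 0.0177). A pseudocount of 1 left 0 called for vinclozolin at E14, 5 at E16 and 4 for flutamide, and a pseudocount of 64 gave 1 for the mean in utero. Quantile normalization gave 0.024 for Aldh1a2 from E13 to E14, and for flutamide 0.035 for Aldh1a2, -0.11 for Rbp4 and -0.077 for Rarb. With the arrays of the in utero experiment alone, the brighter probe set of Cyp26b1 from E13 to E14 and Crabp2 from E13 to E16 had adjusted p-values of 0.059 and 0.0719. Crabp2 from E13 to E16 was also short of the threshold without a variance trend (0.054), without both E13 arrays numbered 1 (0.082), on vehicle arrays alone (0.169) and on vinclozolin arrays alone (0.183).

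Without both E13 arrays numbered 1, 2436 probe sets were called from E13 to E16 and 1 in the test between days. Aldh1a2 (0.0052), Crabp1 (0.071) and Rarb (0.042) from E13 to E14 and Rara from E13 to E16 (0.16) turned, as did the brighter probe set of Cyp26b1 (-0.23), Aldh1a1 (-0.078), Dhrs3 (0.071) and Rbp4 (-0.072) for vinclozolin at E13. Without the 3 arrays, 2767 were called from E13 to E16, 2 for vinclozolin at E13 and 0 at E14. The last 5 values were the same, and Rbp4 from E13 to E14 (0.027) and Dhrs3 (0.091) and Rarb (0.19) from E14 to E16 turned. The mean vinclozolin effect turned for Aldh1a1 (-0.027), Dhrs3 (0.042), Rbp4 (-0.025) and Rarb (0.32), and the E14 effect for Aldh1a1 (-0.10), Aldh1a2 (0.18), Dhrs3 (0.15), Crabp1 (0.047) and Rarb (0.15).

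On vehicle arrays alone, 659 probe sets and 1 member were called from E13 to E14, 4957 from E14 to E16, and 1925 with 2 members from E13 to E16, and Aldh1a2 (0.15), Rbp4 (0.22) and Rarb (0.29) turned from E13 to E14. On vinclozolin arrays alone the counts were 3641, 6030 and 1410, the last with 2 members, and Rarb from E14 to E16 (0.083), the dimmer probe set of Cyp26b1 (0.0043) and Rara (0.19) from E13 to E16 turned.

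With 1 array left out, called probe sets ran from 3654 to 6302 from E13 to E14 (3 to 5 members), 7421 to 9186 from E14 to E16 (5 to 8) and 2748 to 3997 from E13 to E16 (2 to 4). They ran from 0 to 9 for the mean vinclozolin effect, 0 to 4 at E13, 0 to 272 at E14 (0 to 4 members), 0 to 28 at E16 and 0 to 1 in the test between days, with 0 in both cultures. A lone array left in a group was assumed to vary like the others. Values that turned their sign in some such fit had these ranges. From E13 to E14, Aldh1a2 ran from -0.37 to 0.28, Rbp4 from -0.16 to 0.078, Crabp1 from -0.85 to 0.0021 and Rarb from -0.90 to 0.19. From E14 to E16, Aldh1a2 ran from -0.018 to 0.63, Dhrs3 from -0.70 to 0.091 and Rarb from -0.91 to 0.19, and from E13 to E16 Rara from -0.15 to 0.072. The mean vinclozolin effect ran from -0.16 to 0.33 for Aldh1a1 and -0.58 to 0.15 for Rarb. At E13 it ran from -0.61 to 0.18 and -0.62 to 0.79 for the probe sets of Cyp26b1, -0.64 to 0.82 for Aldh1a1, -0.30 to 0.14 for Dhrs3, -0.89 to 0.14 for Crabp1, -0.35 to 0.090 for Rara and -0.31 to 1.01 for Rarb. At E14 it ran from -0.10 to 0.25 for Aldh1a1, -1.12 to 0.18 for Aldh1a2, -1.44 to 0.15 for Dhrs3, -0.36 to 0.017 for Rbp4, -1.65 to 0.047 for Crabp1 and -2.04 to 0.15 for Rarb. At E16 it ran from -0.17 to 0.36 for Aldh1a1, -0.29 to 0.10 for Dhrs3, -0.16 to 0.86 for Rbp4, -0.042 to 0.26 for Crabp1, -0.47 to 0.15 for Crabp2 and -0.19 to 0.069 for Rarb. For vinclozolin in culture it ran from -0.34 to 0.16 for the dimmer probe set of Cyp26b1, -0.15 to 0.57 for Aldh1a2, -0.39 to 0.66 for Rbp4, -0.81 to 0.55 for Crabp1, -0.25 to 0.023 for Crabp2 and -0.048 to 0.38 for Rara. For flutamide it ran from -0.23 to 0.10 for the dimmer probe set of Cyp26b1, -0.079 to 0.027 for Aldh1a2, -0.14 to 0.47 for Dhrs3, -0.086 to 0.12 for Rbp4 and -0.16 to 0.22 for Rarb. Only 2 arrays a group and signals of Rbp4 near the floor limit these values.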
